A study of Homo sapiens with 6 samples.

Results

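The 38 genes described here encode the main classes of lysosomal protein: hydrolases, membrane proteins and regulators. They were taken by symbol from the deposited table of 26372 genes, and all 38 were found there. They comprise 7 cysteine cathepsins, 3 other proteases, 10 glycosidases, 4 sulfatases, 4 genes of lipid breakdown, 2 cholesterol export proteins, 5 membrane proteins and 3 regulators. The lysosome is the acidic compartment in which cells take apart proteins, sugars, lipids and worn-out organelles. Its enzymes are made in the endoplasmic reticulum, tagged with mannose 6-phosphate in the Golgi and delivered through endosomes, and loss of single enzymes causes storage diseases that often strike neurons. Many lysosomal genes carry a short E-box, the CLEAR element, which is bound by the transcription factors TFEB and TFE3 when these enter the nucleus.

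The cells were SH-SY5Y, a human neuroblastoma line used as a neuron model. The tested arm (shT2 in the labels) carried a lentiviral short hairpin RNA (shRNA) against TDP-43, the RNA-binding protein encoded by TARDBP that leaves the nucleus and aggregates in neurons in amyotrophic lateral sclerosis and in some frontotemporal dementia. The control arm (shNC3) carried a control shRNA from the same vector. Both arms had thus been infected with lentivirus, and the TDP-43 knockdown cells were selected with puromycin at 2 µg/mL for 2 weeks and then kept at 1 µg/mL. Puromycin use for the control cells is not given in the sources used here. Each arm had 3 poly(A) RNA libraries. The labels do not say whether an arm was 1 clone, nor whether its libraries stem from different cultures. The p-values therefore reflect library-to-library spread, which may be technical. Levels are in FPKM (fragments per length of transcript and per depth of library), a per-length unit in which different genes can be set side by side.

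TARDBP (chromosome 1, 11012344 to 11026420, plus strand) had 21.9, 20.7 and 21.0 FPKM in knockdown libraries, against 50.3, 50.3 and 47.7 FPKM in the control libraries, a log2 fold change of -1.19 (standard error 0.045, limma adjusted p = 6.69e-08). Depth is not stated by FPKM, and the steps between low values put the libraries at 52.9% to 94.4% of the deepest one in the knockdown and 84.2% to 100% in the control. Markers of the line's cell states differed between the arms. Of 20 markers of the mesenchymal, substrate-adherent state 19 were lower in the knockdown and none was higher, and their summed level ran from 737 to 757 FPKM in the knockdown, against 4493 to 4549 FPKM in the control, with ANXA1 and CAV1 listed at 0 in every knockdown library. Of 14 markers of the noradrenergic neuroblastoma state 9 were higher and 2 lower, with sums of 1203 to 1314 FPKM in the knockdown and 766 to 775 FPKM in the control. GATA3 and DBH were present in all libraries, and TH was listed at 0 in all 6. The part of the state markers in the results below was not tested. The 8 macrophage and microglia markers, from cells rich in lysosomes, reached at most 0.557 FPKM in any library. Of 6 Schwann and glial markers 2 were tested and both were higher, with sums of 7.58 to 9.14 FPKM in the knockdown and 2.72 to 2.85 FPKM in the control.

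Lysosomal transcripts were mostly lower in the knockdown. Of the 37 genes with a mean of at least 1 FPKM, 29 were lower and 4 higher at an adjusted p under 0.05 (limma on log2(FPKM + 1), Benjamini-Hochberg over 13434 genes), and 4 were not called. A fall of at least 2-fold was called for 6 of them (NPC2, CD63, CTSB, SCARB2, TFE3 and ARSB) and a rise of that size for 0, beside 7.95% and 3.31% of all genes tested. Among all genes tested, 35.9% were called lower, 30.5% higher and 66.3% either way. The 29 genes make up 78.4% of the 37, and the 4 that were higher make up 10.8%. TFEB, among the 29, reached a mean of 1 FPKM only through the control. The median log2 fold change of the 37 was -0.49, against -0.020 for all genes tested. The 3 knockdown values lay wholly to one side of the 3 control values in 33 of the 37 genes, and in 70.8% of all genes. In bulk RNA, fewer cells of a type and less RNA per cell cannot be told apart.

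The summed FPKM of the 38 genes was 825, 821 and 829.7 in the knockdown libraries, against 1434, 1441 and 1449.8 in the control libraries. Each knockdown sum thus lay far below each control sum, and the knockdown mean was 0.572 times the control mean. As a share of all FPKM outside 6 abundant small RNAs, the lysosomal genes held 0.186%, 0.190% and 0.188% in the knockdown and 0.335%, 0.335% and 0.339% in the control. Much of the difference lay in 3 abundant genes: CD63, NPC2 and SCARB2 summed to 215 ± 10.2 FPKM in the knockdown and 591 ± 1.82 FPKM in the control (SD, n = 3 each). The other 35 genes summed to 610 ± 13.9 FPKM in the knockdown and 851 ± 7.51 FPKM in the control, 0.717 times the control.

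**Figure D1:**
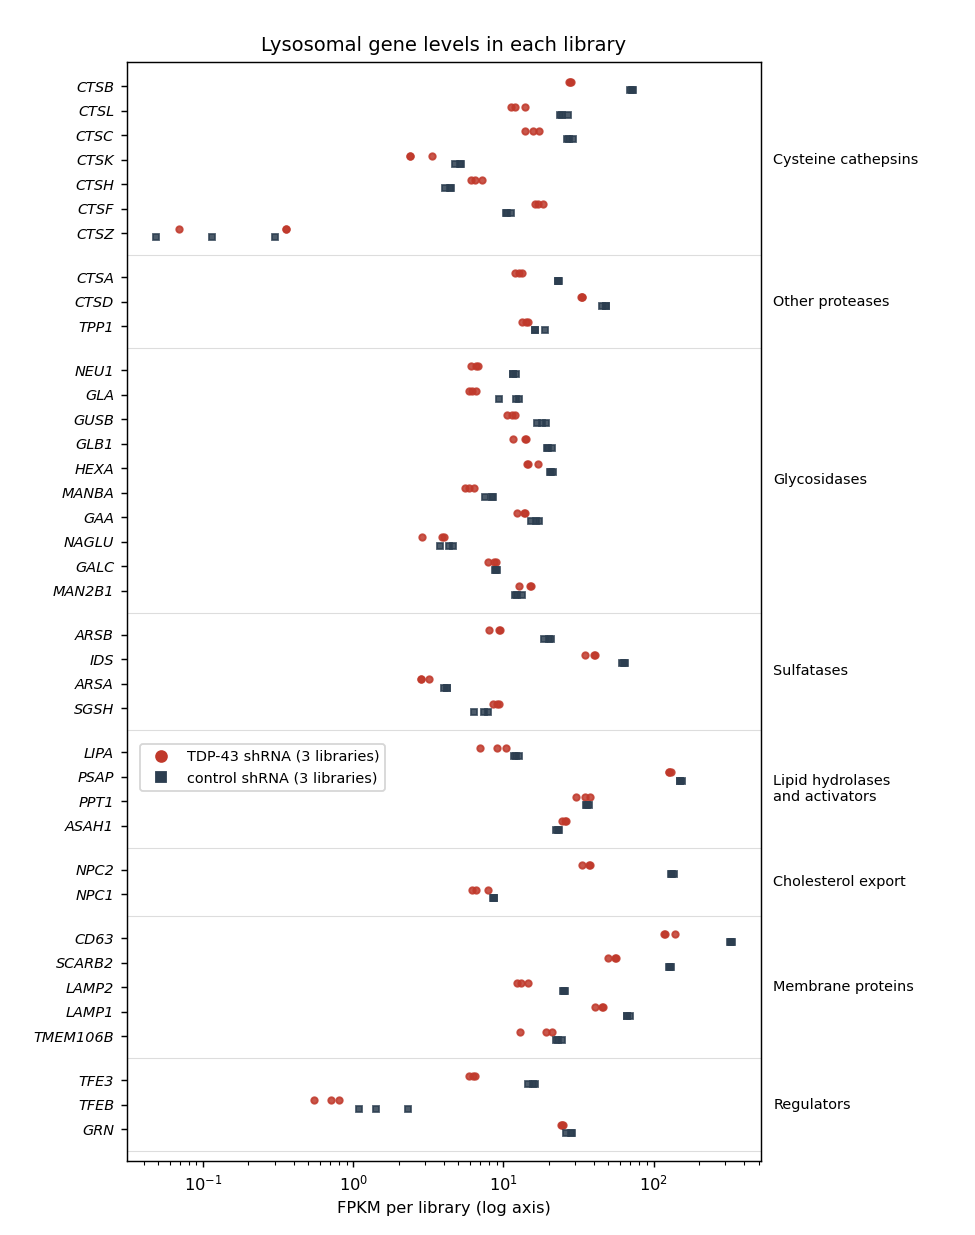
FPKM of each lysosomal gene in each of the 6 libraries on a log axis, grouped by role, with knockdown libraries as circles above and control libraries as squares below. The largest separations by ratio of means are seen for NPC2, CD63, CTSB and TFE3, whereas CTSF, CTSH, SGSH and ASAH1 lie higher in the knockdown.

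All 3 regulators fell, beside 35.9% of all genes tested. TFE3 (chromosome X, 49028726 to 49043486, minus strand) measured 5.91, 6.46 and 6.23 FPKM in knockdown libraries, against 14.5, 15.6 and 16.2 FPKM in the control libraries. Its log2 fold change was -1.19 (standard error 0.062, limma adjusted p = 4.85e-07). TFEB, its close relative, was a low gene at 0.707, 0.804 and 0.544 FPKM in the knockdown and 1.41, 1.09 and 2.32 FPKM in the control. The groups did not overlap, but the control libraries spread more than 2-fold among themselves. With means of 0.685 FPKM in the knockdown and 1.61 FPKM in the control, TFEB passed the filter of 1 FPKM only through the control. TFEB fell by 0.60 on the log2 scale (limma adjusted p = 0.0111), by 0.42 without control library 3, its highest, and by 1.07 with a pseudocount of 0.1 FPKM in place of 1. The ratio of its mean FPKM, knockdown over control, was 0.427. TFE3 therefore held most of the TFEB and TFE3 transcript in both arms on the per-length scale.

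GRN encodes progranulin, a secreted protein that is cut into granulins in lysosomes and whose loss causes frontotemporal dementia with TDP-43 pathology. It stood at 25.1, 24.3 and 24.4 FPKM in the knockdown, against 28.3, 26.0 and 28.7 FPKM in the control. The groups lay apart by a small margin, and GRN fell by 0.16 on the log2 scale (limma adjusted p = 0.0208), turning to 0.028 with quantile normalization. The call was lost without knockdown library 3, control library 1 or control library 3, with log2 fold changes of -0.16, -0.15 and -0.13. Over the 19 alternative settings its limma adjusted p ran from 1.05e-07 to 0.638. The lowest came with every library brought to the same total FPKM. GRN then had a log2 fold change of -1.03, and the median of all genes was -0.82.

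Genes around these regulators, from a list of 25 that act on TFEB and TFE3 or are their relatives, were called in shares near those of all genes. Of 24 tested, 10 were lower (41.7%) and 5 higher (20.8%), beside 35.9% and 30.5% of all genes, with a median log2 fold change of -0.050. MITF, another factor of the family, stood at 1.69 ± 0.310 FPKM in the knockdown and 3.24 ± 0.175 FPKM in the control (SD, n = 3 each). RRAGC, a Rag GTPase that recruits mTORC1 to the lysosome, fell by 0.66 on the log2 scale. TSC2, which restrains mTORC1, and MLST8, an mTORC1 subunit, rose by 0.75 and 0.60. They became -0.11 and -0.23 once every library was brought to the same total FPKM. The median of all genes was then -0.82, and both genes lay above it.

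The CLEAR element was looked for as letters in RefSeq promoter windows (GRCh38.p14, 250 bases before to 50 after a gene's start). Windows were at hand for 28 of the 38 genes. The E-box core CACGTG was found for 8 of them (28.6%), for 8.77% of all 27305 genes and in 7.26% of all 35116 windows. The longer form TCACGTG, read on either strand and containing the core, was found for 7 genes (25.0%), namely CTSA, CTSD, CTSF, GAA, LAMP1, NEU1 and ARSB, for 4.49% of all genes and in 3.71% of windows. Genes can have several windows, so shares of genes run higher than shares of windows. The palindrome TCACGTGA, which contains both shorter forms, was found for CTSA, GAA and LAMP1 (10.7%) and for 1.18% of all genes. The stretches that hold TCACGTG are shown because these letters are the known target of the factors whose transcripts were lower. They are written along the strand the table gives; bases just after the start matched a transcript of each gene except CTSF, whose strand and start were thus not checked. The CTSA, CTSD and CTSF stretches lie inside the GENCODE v29 spans of those genes, whose outermost starts are farther upstream, and the GAA stretch and the second LAMP1 stretch cross the start of the span. Capitals mark TCACGTG or its reverse complement:
LAMP1, first stretch, chr13:113297034-113297114, plus strand: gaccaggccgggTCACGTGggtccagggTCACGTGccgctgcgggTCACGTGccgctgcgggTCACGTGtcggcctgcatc
LAMP1, second stretch, chr13:113297198-113297256, plus strand: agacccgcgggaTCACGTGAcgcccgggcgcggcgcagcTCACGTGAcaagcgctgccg
CTSA, chr20:45891280-45891328, plus strand: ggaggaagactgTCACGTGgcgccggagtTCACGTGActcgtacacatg
GAA, chr17:80101492-80101568, plus strand: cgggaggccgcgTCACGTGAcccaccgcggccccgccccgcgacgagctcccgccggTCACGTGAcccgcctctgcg
CTSD, chr11:1763956-1763986, minus strand: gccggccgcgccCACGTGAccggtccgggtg
NEU1, chr6:31862930-31862960, minus strand: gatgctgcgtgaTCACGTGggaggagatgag
ARSB, chr5:78986100-78986130, minus strand: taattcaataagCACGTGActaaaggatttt
CTSF, chr11:66568711-66568741, minus strand: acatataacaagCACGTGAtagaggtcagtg

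LAMP1 held 6 such sites, CTSA and GAA 2 each, and the other 4 genes 1 each. Of these 7 genes 6 were lower in the knockdown and 1, CTSF, was higher, with a median log2 fold change of -0.60. Of the 21 genes with no such site in their windows 16 were lower, 1 was higher, 3 were not called and 1 was not tested, with a median of -0.59. The 2 medians were nearly equal, and the difference was not tested. Of all 37 tested lysosomal genes 78.4% were lower, and of all genes tested 35.9%. NPC2, SCARB2 and TFE3, among the largest falls, had none of these forms in their windows, and CD63 had the core alone. The match is a description of letters and not of binding.

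Cysteine cathepsins, the papain-like proteases of the lysosome, split into genes that fell and genes that rose. CTSB (chromosome 8, 11842524 to 11869448, minus strand), the most abundant cysteine cathepsin here, stood at 28.0, 27.2 and 27.6 FPKM in the knockdown, against 69.1, 72.1 and 72.4 FPKM in the control (log2 fold change -1.34, standard error 0.040, limma adjusted p = 1.54e-08). CTSL, a broad endopeptidase, stood at 11.1, 11.9 and 13.8 FPKM in the knockdown, against 26.8, 24.6 and 23.8 FPKM in the control. The groups were well apart, with a log2 fold change of -0.97. GENCODE v29 names 6 pseudogenes of CTSL, so its reads may have been shared. CTSC, a dipeptidyl peptidase that activates serine proteases of immune cells, stood at 17.4, 13.9 and 15.8 FPKM in the knockdown, against 27.3, 26.7 and 29.1 FPKM in the control, and fell by 0.78 on the log2 scale. CTSK, best known for collagen breakdown in bone, fell by 0.71, with 2.71 ± 0.556 FPKM in the knockdown and 5.03 ± 0.219 FPKM in the control (SD, n = 3 each).

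CTSF and CTSH rose. CTSF (chromosome 11, 66563463 to 66568841, minus strand), whose loss causes an adult form of neuronal ceroid lipofuscinosis, stood at 18.2, 16.1 and 16.9 FPKM in the knockdown, against 10.4, 10.6 and 11.3 FPKM in the control. Every knockdown value lay above every control value, with a log2 fold change of 0.62 (standard error 0.061, limma adjusted p = 3.03e-05). CTSH, an aminopeptidase, stood at 6.12, 7.15 and 6.48 FPKM in the knockdown, against 4.09, 4.42 and 4.44 FPKM in the control (log2 fold change 0.51, limma adjusted p = 3.13e-04). With every library brought to the same total FPKM both became negative (-0.22 and -0.25). The median of all genes was then -0.82, and CTSF and CTSH lay 0.60 and 0.57 above it. CTSZ, a carboxypeptidase, was barely detected, at 0.0687, 0.358 and 0.356 FPKM in the knockdown and 0.0481, 0.301 and 0.114 FPKM in the control, and was not tested.

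The 3 other proteases fell, beside 35.9% of all genes tested. CTSA, a serine carboxypeptidase that also protects beta-galactosidase and sialidase from degradation, stood at 12.7, 13.3 and 12.003 FPKM in the knockdown, against 23.0, 23.1 and 23.6 FPKM in the control (log2 fold change -0.83). CTSD, the main aspartic protease, stood at 33.4, 33.4 and 32.9 FPKM in the knockdown, against 47.9, 45.3 and 48.6 FPKM in the control (log2 fold change -0.49, and -0.25 with quantile normalization). Both sets of libraries lay wholly apart, and the fall of CTSA was larger than that of CTSD by point estimate. CTSA shares exon bases with PLTP on the opposite strand, at 17.6 ± 1.53 FPKM in the knockdown and 23.1 ± 1.17 FPKM in the control (SD, n = 3 each). TPP1, a tripeptidyl peptidase lost in late infantile ceroid lipofuscinosis, fell by 0.27 on the log2 scale (limma adjusted p = 0.00929), a call lost with quantile normalization.

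Because the cathepsins changed by different amounts, their make-up differed between the arms. The 9 cathepsin genes summed to 128 ± 2.24 FPKM in the knockdown and 215 ± 3.01 FPKM in the control (SD, n = 3 each). CTSB held 21.5%, 21.6% and 21.5% of that sum in the knockdown libraries, against 32.3%, 34.0% and 33.2% in the control libraries. CTSD held 25.9% ± 0.520 in the knockdown and 21.998% ± 0.589 in the control, so the aspartic protease had the largest share in the knockdown and CTSB in the control. CTSF and CTSH together held 18.7%, 18.5% and 18.2% in the knockdown and 6.80%, 7.07% and 7.22% in the control. Shares of one sum are tied to each other and are given as a description.

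**Figure D2:**
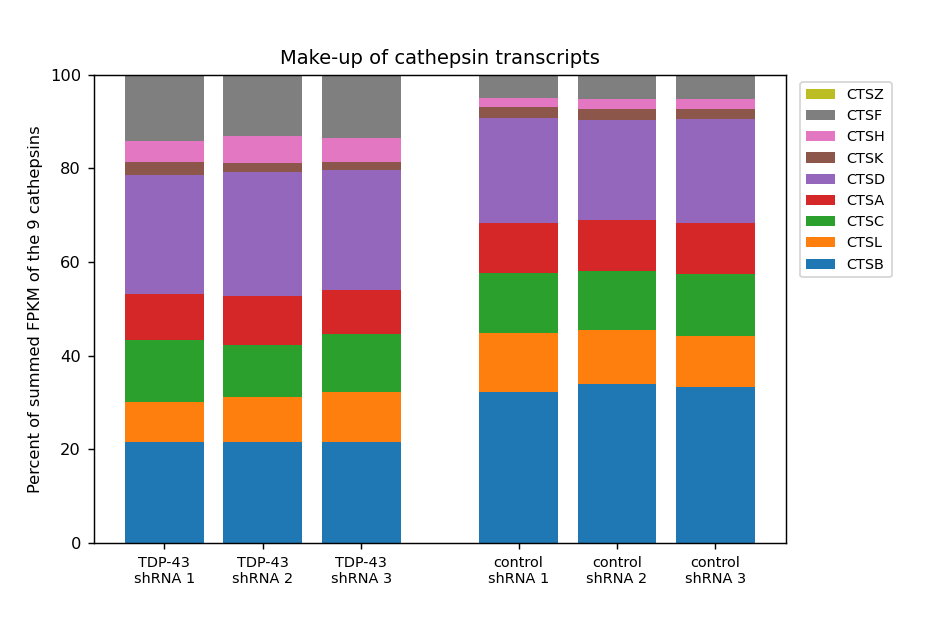
Percent of the summed FPKM of the 9 cathepsin genes held by each gene, with the 3 knockdown libraries on the left and the 3 control libraries on the right. CTSB holds 21.5% to 21.6% in the knockdown and 32.3% to 34.0% in the control, and CTSF and CTSH hold larger shares in the knockdown.

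Of 10 glycosidases, which trim sugar chains from glycolipids, glycoproteins and glycosaminoglycans, 7 fell, none rose and 3 were not called. The shares of all genes tested were 35.9% lower, 30.5% higher and 66.3% called either way. NEU1, the lysosomal sialidase, stood at 6.72, 6.57 and 6.12 FPKM in the knockdown, against 12.2, 11.5 and 11.6 FPKM in the control (log2 fold change -0.77, limma adjusted p = 5.65e-06). GLA, the alpha-galactosidase lost in Fabry disease, stood at 5.88, 6.59 and 6.15 FPKM in the knockdown, against 12.6, 12.1 and 9.28 FPKM in the control (log2 fold change -0.76). Control library 3 lay below the other 2 control libraries for GLA and still above the knockdown. GLB1, the beta-galactosidase that works in a complex with NEU1 and CTSA, fell by 0.57 on the log2 scale.

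Among the other glycosidases GUSB, the beta-glucuronidase, fell by 0.62 on the log2 scale, and GENCODE v29 names 11 pseudogenes of it. HEXA, the hexosaminidase subunit lost in Tay-Sachs disease, fell by 0.42 and MANBA, a beta-mannosidase, by 0.40. GAA, the glycogen-degrading glucosidase lost in Pompe disease, stood at 13.3 ± 0.874 FPKM in the knockdown and 16.4 ± 1.00 FPKM in the control (SD, n = 3 each), and its call (log2 fold change -0.28, limma adjusted p = 0.00569) was lost with quantile normalization.

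The other 3 glycosidases were not called. NAGLU, which acts on heparan sulfate, had a log2 fold change of -0.20 (95% confidence interval -0.46 to 0.054, limma adjusted p = 0.142), and -0.087 without knockdown library 1. GALC, the galactosylceramidase lost in Krabbe disease, had a log2 fold change of -0.059 (95% interval -0.20 to 0.080), with 8.49 ± 0.503 FPKM in the knockdown and 8.88 ± 0.141 FPKM in the control (SD, n = 3 each). MAN2B1, an alpha-mannosidase, stood at 12.7, 14.9 and 15.4 FPKM in the knockdown, against 11.9, 12.2 and 13.4 FPKM in the control. Its groups overlapped, and its log2 fold change was 0.18, with an unadjusted 95% interval of 0.0032 to 0.36 that lay above 0 (limma adjusted p = 0.068). It was called higher without knockdown library 1 (0.26), with quantile normalization (0.29) and with the replicate number as a block (limma adjusted p = 0.0455). With every library brought to the same total FPKM it was called lower (-0.66), which is 0.16 above the all-gene median of -0.82 under that scaling.

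Sulfatases remove sulfate groups from glycosaminoglycans and sulfatides, and 3 of the 4 fell (75.0%, beside 35.9% of all genes tested). ARSB, which acts on dermatan sulfate, stood at 9.33, 8.06 and 9.49 FPKM in the knockdown, against 18.7, 20.7 and 20.0 FPKM in the control (log2 fold change -1.06, standard error 0.071, limma adjusted p = 2.31e-06). IDS, lost in Hunter syndrome and the most abundant of the 4, stood at 40.6, 35.1 and 40.0 FPKM in the knockdown, against 63.7, 64.5 and 61.5 FPKM in the control (log2 fold change -0.70, and -0.44 with quantile normalization). GENCODE v29 names 1 pseudogene of IDS. ARSA, lost in metachromatic leukodystrophy, fell by 0.39 on the log2 scale.

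SGSH, a heparan sulfatase lost in a form of Sanfilippo syndrome, went the other way. It stood at 9.30, 9.01 and 8.48 FPKM in the knockdown, against 7.38, 6.38 and 7.90 FPKM in the control, and rose by 0.28 on the log2 scale (limma adjusted p = 0.0141), and -0.53 with equal totals, which is 0.29 above the all-gene median under that scaling. The call was lost without control library 2, its lowest control value, where the log2 fold change was 0.20. SGSH shares exon bases with SLC26A11 on the opposite strand, which had 6.74 ± 1.44 FPKM in the knockdown and 4.75 ± 0.343 FPKM in the control (SD, n = 3 each). Since use of strand in counting is not given in the sources used here, reads of the pair cannot be told apart.

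Of the 4 genes of lipid breakdown 2 fell, 1 rose and 1 was not called, with small changes. Beside them, 35.9% of all genes tested were lower and 30.5% higher, and so small a list cannot be told from that background. PSAP, the precursor of the saposins that present lipids to their hydrolases, stood at 126.0, 126.9 and 130.8 FPKM in the knockdown, against 148.8, 150.6 and 155.5 FPKM in the control. It fell by 0.24 on the log2 scale (limma adjusted p = 3.66e-04) and turned to 0.050 with quantile normalization. LIPA, the acid lipase that releases cholesterol from its esters, stood at 9.11, 6.97 and 10.4 FPKM in the knockdown, against 12.2, 12.7 and 11.7 FPKM in the control (log2 fold change -0.44). ASAH1, the acid ceramidase, stood at 25.6, 24.7 and 26.2 FPKM in the knockdown, against 22.5, 23.2 and 23.4 FPKM in the control. It rose by 0.14 on the log2 scale (limma adjusted p = 0.0242), by 0.31 with quantile normalization, and had -0.73 with equal totals, which is 0.091 above the all-gene median under that scaling. That call was lost without knockdown library 1 or 3 or control library 1 or 2, at log2 fold changes of 0.12 to 0.14, and with the replicate number as a block. PPT1, which removes palmitate from proteins, was not called (log2 fold change -0.078, 95% interval -0.24 to 0.084). PPT1 shares exon bases with CAP1 on the opposite strand, at 57.7 ± 1.66 FPKM in the knockdown and 134 ± 2.27 FPKM in the control.

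The 2 proteins that pass cholesterol out of the lysosome fell by different amounts. NPC2 (chromosome 14, 74476192 to 74494177, minus strand), the soluble protein that takes up cholesterol in the lumen, had the largest change of the 37 genes tested. It stood at 33.4, 37.7 and 37.0 FPKM in the knockdown, against 133, 138 and 131 FPKM in the control, 0.269 times the control mean (log2 fold change -1.87, standard error 0.052, limma adjusted p = 9.31e-09). NPC1, the membrane protein to which NPC2 hands the sterol, stood at 7.84, 6.60 and 6.21 FPKM in the knockdown, against 8.66, 8.57 and 8.61 FPKM in the control (log2 fold change -0.29, limma adjusted p = 0.0115). The 95% intervals, -1.99 to -1.75 for NPC2 and -0.48 to -0.11 for NPC1, lay well apart. NPC2 shares exon bases with ISCA2 on the opposite strand, at 8.58 ± 0.445 FPKM in the knockdown and 17.4 ± 0.609 FPKM in the control (SD, n = 3 each), and NPC1 shares some with C18orf8.

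**Figure D3:**
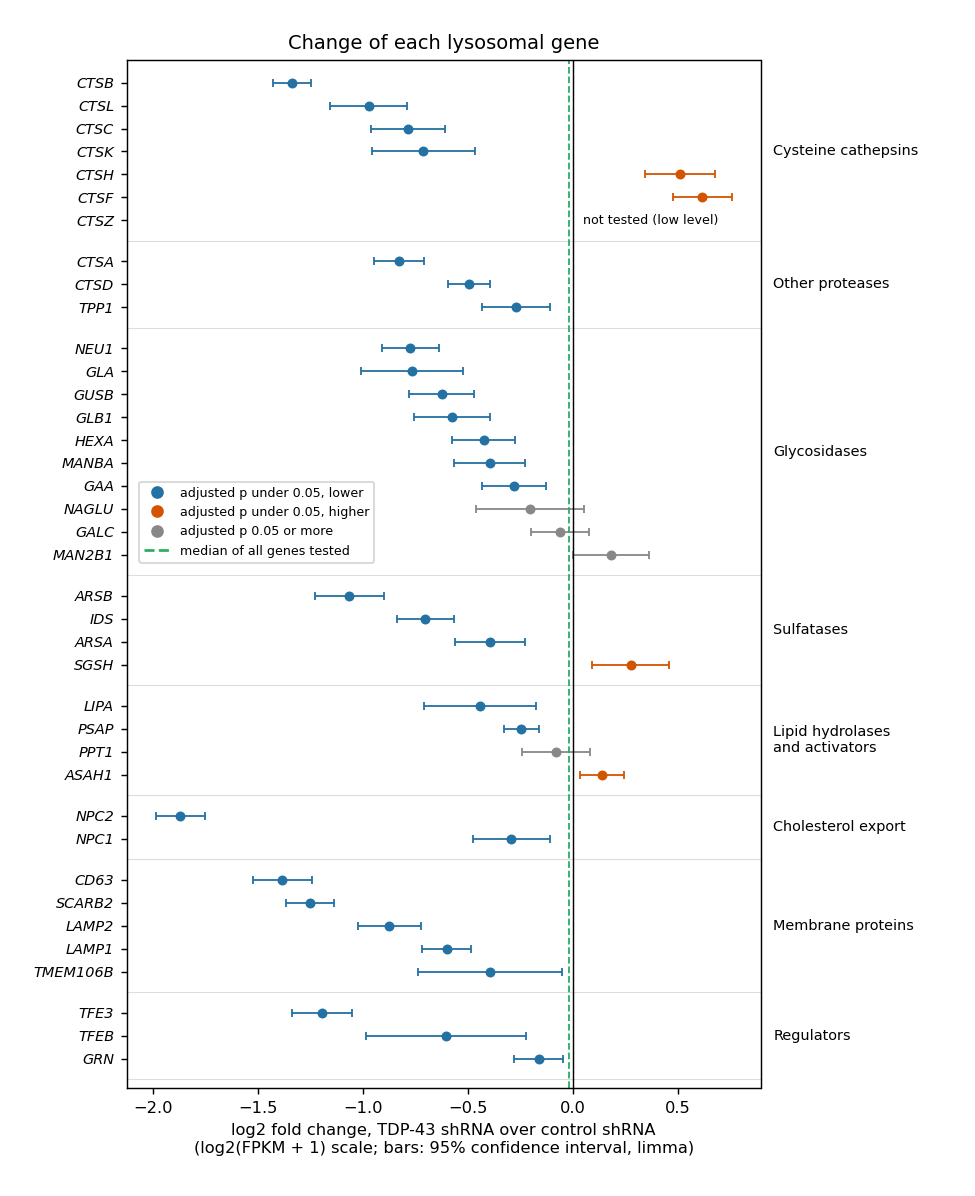
Log2 fold change of knockdown over control for each lysosomal gene on the log2(FPKM + 1) scale, with 95% confidence intervals from limma, grouped by role. NPC2, at -1.87, lies farthest to the left, CTSF, at 0.62, farthest to the right, and the dashed line marks the median of all genes tested.

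All 5 membrane proteins fell, beside 35.9% of all genes tested. CD63 (chromosome 12, 55725323 to 55729707, minus strand), a tetraspanin of late endosomes and exosomes, stood at 119.7, 139 and 118 FPKM in the knockdown, against 329, 324 and 331 FPKM in the control (log2 fold change -1.38, standard error 0.062, limma adjusted p = 1.72e-07). SCARB2 (chromosome 4, 76158733 to 76234536, minus strand), known as LIMP-2, a lysosomal membrane glycoprotein and sorting receptor, stood at 55.1, 49.9 and 55.9 FPKM in the knockdown, against 127, 131 and 128 FPKM in the control (log2 fold change -1.25, limma adjusted p = 8.54e-08). In both genes every knockdown library lay far below the lowest control library.

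LAMP1 and LAMP2, the heavily glycosylated proteins that line the lysosomal membrane, fell by 0.60 and 0.87. LAMP1 stood at 45.5, 45.8 and 41.0 FPKM in the knockdown, against 66.1, 66.5 and 69.3 FPKM in the control, and its log2 fold change was -0.34 with quantile normalization. LAMP2, which also takes part in autophagosome fusion and chaperone-mediated autophagy, stood at 13.2, 12.3 and 14.6 FPKM in the knockdown, against 25.2, 25.8 and 24.7 FPKM in the control. TMEM106B, a lysosomal membrane protein and genetic modifier of frontotemporal dementia with TDP-43 pathology, stood at 19.3, 12.97 and 21.2 FPKM in the knockdown, against 23.2, 24.4 and 22.3 FPKM in the control. Knockdown library 2, the shallowest by low-value steps, was the lowest of the 3 knockdown libraries for TMEM106B, as for 16 of the 38 genes, and it was the highest for another 16. TMEM106B fell by 0.39 on the log2 scale (limma adjusted p = 0.0439) and by 0.19 without that library. Its call was lost without any 1 of the control libraries, without limma's trend, with quantile normalization and with a filter under 1 FPKM or none. The log2 fold change was -0.25 with quantile normalization and stayed between -0.42 and -0.36 in the others. Over the 19 alternatives its limma adjusted p ran from 5.43e-07 to 0.168. The lowest came with every library brought to the same total FPKM. TMEM106B then had a log2 fold change of -1.26, and the median of all genes was -0.82.

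In order of level, CD63 was the most abundant lysosomal transcript in the control at 328 ± 3.78 FPKM, followed by PSAP at 152 ± 3.49, NPC2 at 134 ± 3.34 and SCARB2 at 129 ± 2.28 FPKM (SD, n = 3 each). The ranges of NPC2 and SCARB2 overlapped. In the knockdown PSAP, at 128 ± 2.53 FPKM, and CD63, at 126 ± 11.9 FPKM, overlapped at the top, followed by SCARB2 at 53.6 ± 3.26 FPKM. NPC2 ranked 6th of 38 in the knockdown and 3rd in the control, and CTSF 13th in the knockdown and 28th in the control. TFEB and CTSZ were the lowest in both arms. Spread among libraries was larger in the knockdown, with a median SD of 0.0897 on the log2 scale over the 37 genes, than in the control, at 0.0529. The same held over all genes tested, with medians of 0.0932 in the knockdown and 0.0606 in the control.

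The rest of the lysosomal system was described from 5 lists of further genes, 145 in all, of which 130 were tested. Of these 66 were lower and 23 higher, or 50.8% and 17.7%, beside 35.9% and 30.5% of all genes tested. Among 31 further hydrolases 18 were lower (58.1%) and 4 higher (12.9%), with a median log2 fold change of -0.41. AGA, aspartylglucosaminidase, stood at 3.13 ± 0.326 FPKM in the knockdown and 13.7 ± 0.904 FPKM in the control (SD, n = 3 each). EPDR1 fell by 1.07 and SMPD1, acid sphingomyelinase, by 1.00 on the log2 scale.

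The V-ATPase, the proton pump that acidifies lysosomes, had 13 of 20 tested genes lower (65.0%) and 2 higher (10.0%), with a median of -0.33. Among all genes tested, 35.9% were lower and 30.5% higher. ATP6AP2, an accessory subunit, stood at 32.0 ± 4.08 FPKM in the knockdown and 66.2 ± 2.78 FPKM in the control (SD, n = 3 each), and ATP6V0E1, ATP6V1D and ATP6V0D1 fell by 0.88, 0.78 and 0.69. Of 32 genes of sorting to the lysosome 17 were lower (53.1%) and 6 higher (18.8%), with a median of -0.29. SORCS1, a sorting receptor, stood at 10.2 ± 0.563 FPKM in the knockdown and 34.9 ± 0.873 FPKM in the control, and its relative SORL1 at 6.46 ± 0.267 FPKM in the knockdown and 2.27 ± 0.0538 FPKM in the control. LYST, a regulator of lysosome size, and VPS29, a retromer subunit, fell by 0.91 and 0.81.

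Of 24 further membrane proteins of the lysosome 8 were lower (33.3%) and 6 higher (25.0%), near the 35.9% and 30.5% of all genes, with a median of -0.053. CD68 had the largest fall of the 130 genes, at 2.55 ± 0.404 FPKM in the knockdown and 14.7 ± 0.617 FPKM in the control (SD, n = 3 each). SLC29A3, a nucleoside transporter, stood at 10.5 ± 1.57 FPKM in the knockdown and 5.03 ± 0.565 FPKM in the control. Its log2 fold change of 0.93 became 0.14 and lost its call (limma adjusted p = 0.331) with every library brought to the same total FPKM. The median of all genes was then -0.82. OSTM1, a subunit of a chloride and proton exchanger, and LMBRD1, of vitamin B12 export, fell by 0.82 and 0.75.

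**Figure D4:**
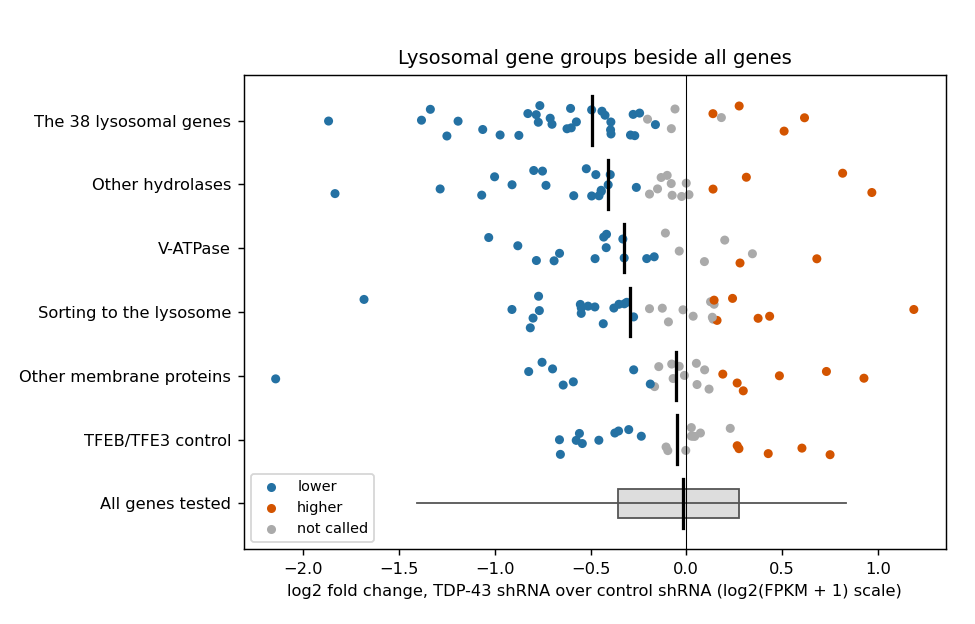
Log2 fold change of knockdown over control for each tested gene of the 38 lysosomal genes and of 5 further lists, one dot a gene, with the median as a black line; the bottom row shows all genes tested as median, quartiles (box) and 5th to 95th percentiles (line). Medians are -0.49 for the 38 genes' tested members, -0.41 for other hydrolases, -0.33 for the V-ATPase, -0.29 for sorting, and near 0 for the last 2 lists and for all genes.

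The median of the 37 tested genes stayed near the same distance from that of all genes under the scalings tried, while single genes moved. Apart from quantile normalization, each scaling divides a library by a constant and shifts all its genes alike. Such a scaling can change this distance only through the added 1 FPKM, so its near constancy there was fixed in advance. Rescaling by the median of ratios, or to equal sums without the 6 small RNAs, left 29 lower and 4 higher. Quantile normalization moved the median of all genes to 0.089, with 24 lower and 5 higher, and left the lysosomal median 0.43 below it. Relative to the all-gene median, PSAP then lay at -0.039, GRN at -0.061 and PPT1 at 0.071. The 6 small RNAs held 79.7% to 82.0% of all FPKM in the knockdown and 63.8% to 64.9% in the control, and rescaling to equal totals with them included moved the median of all genes to -0.82 and called all 37 lower. TFEB lay 0.26 below the all-gene median there (-1.08 against -0.82). The lysosomal median lay 0.43 to 0.48 below that of all genes under the deposited scale and these 4 scalings.

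**Figure D5:**
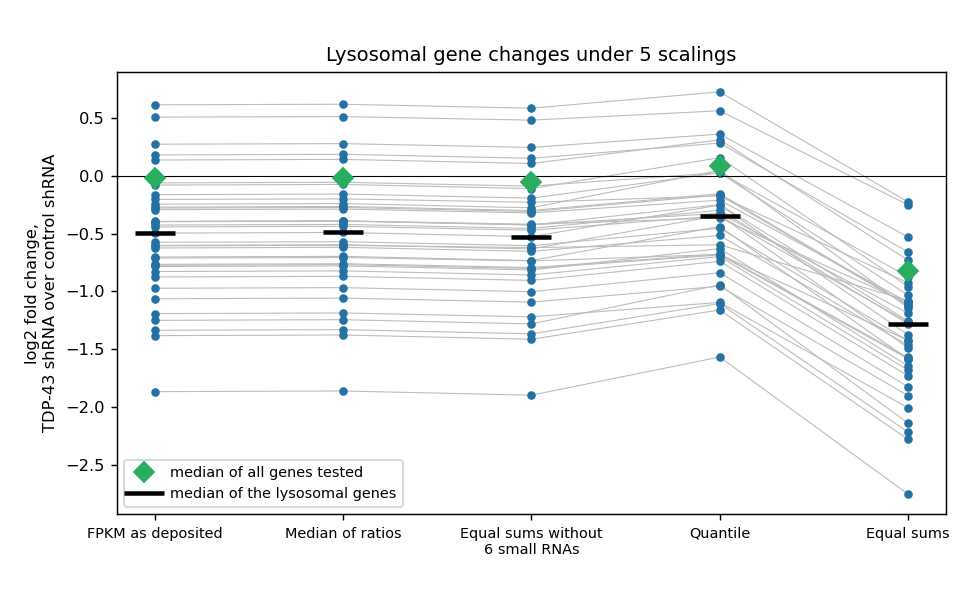
Log2 fold change of the 37 tested lysosomal genes under the deposited FPKM and 4 other scalings, one dot a gene joined by lines, with the median of the lysosomal genes as a black bar and that of all genes as a green diamond. The distance between bar and diamond is 0.47 on the deposited scale and 0.43 to 0.48 under the others. Scalings other than quantile divide a library by a constant, which leaves this distance nearly fixed.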

How the data were processed

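The authors deposited FPKM per gene for 6 libraries, 3 per arm, built from poly(A) RNA with a strand-keeping kit (labels' protocols). Cuffdiff 2.2.1, SAMtools, TopHat2 2.1.0 and the hg38 build are named, without their roles, per the submitters' processing notes. The annotation used is not given in the sources used here, nor is the use of strand. Groups came from sample titles. At most 1 non-zero value was identical between any pair of libraries.

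The scale of the tests was log2(FPKM + 1), on which changes of low genes appear too small. The 13434 genes averaging at least 1 FPKM were tested with limma 3.58.1 in R 4.3.3 (intensity trend, two-sided, Benjamini-Hochberg), and called at an adjusted p under 0.05. The fit was tested on simulated data. An exact permutation test of 3 against 3 libraries cannot go below p = 0.1. FPKM hides read numbers, so absolute depth is unknown; libraries were ranked in depth by the most frequent ratio between their values below 0.3 FPKM. Labels give no batch. Replicate numbers occur in both arms without a stated link.

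The genes and lists were chosen with earlier results of these data known. Named were TARDBP, the 38 genes and up to 4 called genes of each further list with the largest change; overlap partners and state markers were named besides, and some genes the rule names are not reported here. Positions are 1-based from GENCODE v29 (GRCh38, the assembly behind hg38). Exon bases are shared with another gene of the table by 8 of the 38. Planned comparison of cathepsin protein sequences was not made. Plots used matplotlib 3.10.9 in Python 3.11.15.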

Additional observations from a re-analysis of the deposited data

How the results depend on the processing

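Results were recomputed under 19 alternatives. The 37 tested lysosomal genes gave 699 values over these, of which 665 kept direction and call, 18 lost the call, 6 gained it and 10 changed direction. With quantile normalization PSAP, GALC, PPT1 and GRN turned to 0.050, 0.029, 0.16 and 0.028. With columns rescaled to equal sums CTSF, CTSH, ASAH1, MAN2B1, SGSH, TSC2 and MLST8 turned to -0.22, -0.25, -0.73, -0.66, -0.53, -0.11 and -0.23, with the all-gene median at -0.82. That scaling called 522 genes higher and 11689 lower (98 and 4852 by at least 2-fold), 0 of the 37 lysosomal genes higher and 29 lower by at least 2-fold, and 3 further lysosomal genes higher and 122 lower. Calls were 4.27% higher there, 58.7% with quantile normalization and 45.9% on the deposited scale. Genes higher by at least 2-fold numbered 444, 741 with a pseudocount of 0.1 and 244 with a minimum mean of 5 FPKM. The cause of other changes was not tested.

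Leaving out each library gave 7992 to 9140 called genes (3598 to 4257 higher, 4394 to 4883 lower), 435 to 472 higher and 1047 to 1089 lower by at least 2-fold. Of the lysosomal genes 30 to 33 were called, 27 to 29 lower, 2 to 4 higher and 5 to 7 lower by at least 2-fold. The count of 2 came without control library 2. Further lists had 83 to 88 calls, 18 to 21 higher and 65 to 67 lower. PPT1 ran from -0.14 to 0.0008 over these fits, with the positive value without knockdown library 2. With the replicate number as a block, 29 lysosomal genes were lower and 4 higher. ASAH1 lost and MAN2B1 gained its call. Deviations of same-numbered libraries correlated at -0.0185, -0.185 and -0.0911, which cannot settle whether the libraries were paired. FPKM gives no read numbers, so low genes such as TFEB and CTSZ have unknown counting error.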
